A study of Homo sapiens with 4 samples.

Results

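The GOLGA6, GOLGA8, NPIP and NBPF genes are families of near-identical copies that segmental duplication has spread over chromosomes 15, 16 and 1. Members were taken by symbol: GOLGA6 or GOLGA8 with a single letter after it, NPIPA or NPIPB with a number, and NBPF with a number. The rule found 52 of the 58735 genes in the table. They were 4 GOLGA6, 15 GOLGA8, 6 NPIPA, 12 NPIPB and 15 NBPF genes, with 51 distinct symbols because GOLGA8M stands on 2 rows. The families were picked because GOLGA8B and NPIPB12 were higher in shSPTLC2 than in shCON, so the comparison between the groups is given for all members as a description.

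RNA was measured in Hey-A8, an ovarian cancer cell line, in 2 shCON and 2 shSPTLC2 libraries of total RNA. shCON is the control hairpin and shSPTLC2 the hairpin labelled as lowering SPTLC2, a subunit of the enzyme that begins sphingolipid synthesis. According to the titles, the genotype field and the design the knockdown is stable. The treatment protocol instead tells of plasmids with hairpins against ZDHHC15, or a scrambled hairpin, delivered by transient transfection, with harvest at 36 h. SPTLC2 fell from 871 and 884 counts in the shCON libraries to 587 and 662 in the shSPTLC2 libraries (log2 fold change -0.52 ± 0.12, SE), and ZDHHC15 had 0 in all 4. Pairs of values below are always in the order replicate 1, replicate 2. The labels do not say that replicates came from separate cultures, nor whether the hairpin cells are 1 clone or a pool, so tests reflect the spread among these 4 libraries and no more.

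GOLGA8 genes encode golgin-like proteins related to GOLGA2, a coiled-coil protein that tethers vesicles at the cis-Golgi, and they lie in the duplicated blocks of chromosome 15. NPIP genes, for nuclear pore complex interacting protein, are the recurrent core of the duplications of chromosome 16 and changed fast in the ape lineage. NBPF genes, the neuroblastoma breakpoint family of chromosome 1, encode tandem Olduvai domains, whose copy number is far higher in humans than in other primates. What most of these copies do in a cell is not well known. A short read can match several of them.

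The coding sequences of the copies that the results turn on were compared first. GOLGA8A and GOLGA8B, the most counted GOLGA8 members, differed at 3 of 1893 aligned coding bases (99.8% identity). The stretch below is shown because it holds 1 of those 3 differences. It is 120 coding bases, on the minus strand of hg38, at chr15:34386796-34386961 across 2 exons of GOLGA8A and at chr15:34533017-34533136 in 1 exon of GOLGA8B. The capital marks the base that differs, and elsewhere the 2 coding stretches are identical. On the genome, a read over the exon junction would be split in GOLGA8A and unbroken in GOLGA8B.
GOLGA8A: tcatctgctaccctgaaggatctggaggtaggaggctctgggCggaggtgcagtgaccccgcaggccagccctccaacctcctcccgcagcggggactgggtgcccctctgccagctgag
GOLGA8B: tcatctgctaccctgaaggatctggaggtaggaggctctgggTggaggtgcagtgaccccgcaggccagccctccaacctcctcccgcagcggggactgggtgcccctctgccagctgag

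NPIPB12 and NPIPB11 differed more, at 50 of 1773 aligned coding bases (97.2% identity). Their window with the most differences, 12 in 120 coding bases, is shown for contrast. It lies in 1 exon on the minus strand of hg38, at chr16:29485295-29485414 in NPIPB12 and chr16:29383739-29383858 in NPIPB11, and capitals again mark the bases that differ.
NPIPB12: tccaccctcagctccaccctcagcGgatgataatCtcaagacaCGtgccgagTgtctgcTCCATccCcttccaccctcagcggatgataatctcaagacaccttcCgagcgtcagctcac
NPIPB11: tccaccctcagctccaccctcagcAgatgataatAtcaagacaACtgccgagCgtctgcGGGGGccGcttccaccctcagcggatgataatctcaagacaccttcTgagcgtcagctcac
Against NPIPB13, NPIPB12 differed at 9 of 1767 aligned coding bases (99.5% identity), and NPIPB5 differed from NPIPB4 at 20 of 3380 (99.4%). NPIPB15 stood further off, with 72 differences from NPIPB12 in 890 aligned bases (91.9% identity). That alignment covered 67.0% of the shorter coding sequence, and the rest is not in the identity. The coding sequence used for NPIPB12 had 1786 bases, against 3483 for NPIPB11 and 3414 for NPIPB13.

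Start regions, taken as 300-base windows at the annotated starts, aligned over most of their length for some pairs of members and not for others. Promoter sequence from RefSeq (GRCh38.p14) matched 17 of the 25 members that were tested. NBPF15 and NBPF9 had 286 identical of 290 aligned bases in their 300-base start regions. The 250 bases before each start are shown because these 2 genes had unlike values: NBPF15 rose and NBPF9 was not called, as given further on. They lie on the minus strand, at chr1:144461670-144461919 for NBPF15 and chr1:149103552-149103801 for NBPF9. Capitals mark the bases that differ where the 2 lines align. The lines are offset, so the first bases of NBPF15 and the last of NBPF9, in lower case, have no partner in the other line.
NBPF15: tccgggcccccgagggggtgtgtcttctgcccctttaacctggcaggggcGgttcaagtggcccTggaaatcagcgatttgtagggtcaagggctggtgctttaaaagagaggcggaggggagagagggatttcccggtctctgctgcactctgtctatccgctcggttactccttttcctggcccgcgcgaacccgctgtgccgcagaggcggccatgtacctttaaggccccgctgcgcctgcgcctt
NBPF9: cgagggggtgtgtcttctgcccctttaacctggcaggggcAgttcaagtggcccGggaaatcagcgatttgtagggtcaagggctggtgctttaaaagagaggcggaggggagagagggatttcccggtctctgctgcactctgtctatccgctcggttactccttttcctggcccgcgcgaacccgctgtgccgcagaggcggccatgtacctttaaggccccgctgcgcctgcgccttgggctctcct
The letters GGGCGG, searched on both strands, were present before the start of NBPF15 and not of NBPF9. They were found in 4 of the 17 member promoters (NBPF8, NBPF15, NBPF12 and NBPF11) and in 42.3% of the 27305 promoters of the same length. Of these 4, NBPF8, NBPF12 and NBPF11 were not called, and NBPF8 had 287 of 290 aligned start-region bases identical to NBPF15. Whether NBPF15 and NBPF9 differ in their change, and whether the letters have a part in it, was not tested. NPIPA1 and NPIPA5 had 299 of 300 bases of their start regions in common. NBPF10 and NBPF14, at 98.9% coding identity, had 41 identical bases in 41 aligned, and NPIPB3 and NPIPB12 had 4 in 6. Window ends could stay unaligned at no cost. Few aligned bases can therefore come from starts annotated at shifted positions, and do not show that the promoters differ.

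Over whole annotated transcripts, sharing was measured as the percentage of a gene's 100-base subsequences found in a transcript of another gene. The median was 54.3% for the 2 tested GOLGA8 genes, 85.1% for 8 NPIPB genes, 80.3% for 3 NPIPA genes and 51.0% for 12 NBPF genes. GOLGA8B had 51.9%, with 49.0% found in GOLGA8A. NPIPB3 had 96.8%, all of it found in NPIPB5, and NPIPB12 had 94.4%, with 76.2% found in NPIPB5. NBPF3 (3.83%) and NBPF1 (8.79%), which lie apart from the other NBPF genes on chromosome 1, shared least among the tested NBPF genes. The sources used here do not say how reads that match several copies were counted. The split of counts among copies is therefore uncertain, and family sums are given beside it. Sums do not settle reads shared with genes outside a family. Each shared subsequence of GOLGA8A (56.7%) and NPIPB3 was found in another member of its own family. Some of those of NPIPB3 also lay outside NPIPB, with 2.61% of its subsequences found in NPIPA1. NPIPA1 had 74.2% in another gene but 16.3% in another NPIPA gene, and NBPF19 had 67.6% but 34.6% in another NBPF gene.

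Of the 52 members, 45 had a count in some library and 7 were at 0 in all: NBPF4, NBPF7, GOLGA8S, GOLGA6A, GOLGA6C, GOLGA6D and NPIPB7. In a single library, 0 allows up to 3 counts, or 0.195 to 0.206 CPM (counts scaled to library size). Another 20 members had totals of 1 to 32 counts over the 4 libraries, and they did not pass the filter on low counts. The 25 that passed held 99.5% of all member counts. GOLGA6 had 1 count over its 4 genes and 4 libraries. Of 15 GOLGA8 rows GOLGA8A and GOLGA8B alone passed. NPIPA7, NPIPB15 and NPIPB13 reached the minimum in 2 shSPTLC2 libraries and 1 shCON library. The filter asks for 2 libraries of any group, so the shCON libraries alone would not have passed them. Their entry itself therefore depended on shSPTLC2. NPIPB9 reached the minimum in 1 library of each group.

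Levels between genes were compared per length, as the authors' FPKM. Among the 25 tested members, the highest in shCON were NBPF8 (10.2 and 14.0 FPKM), GOLGA8A (10.8 and 10.5) and NBPF15 (9.69 and 10.8), whose libraries overlapped. NBPF9 (7.55 and 8.56) and NPIPB5 (6.24 and 5.58) followed, without overlap between them. The other tested NPIPB and NPIPA genes ranged from 0.131 FPKM (NPIPB13) to 1.61 (NPIPA5). In shSPTLC2, GOLGA8A was first at 17.5 and 15.3 FPKM, and NPIPB5, at 14.3 and 11.1, overlapped NBPF15 and NBPF8. GOLGA8B, at 2.66 and 3.40 FPKM in shCON, stood at 10.5 and 9.59 in shSPTLC2, close to the level of GOLGA8A in shCON.

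**Figure D1:**
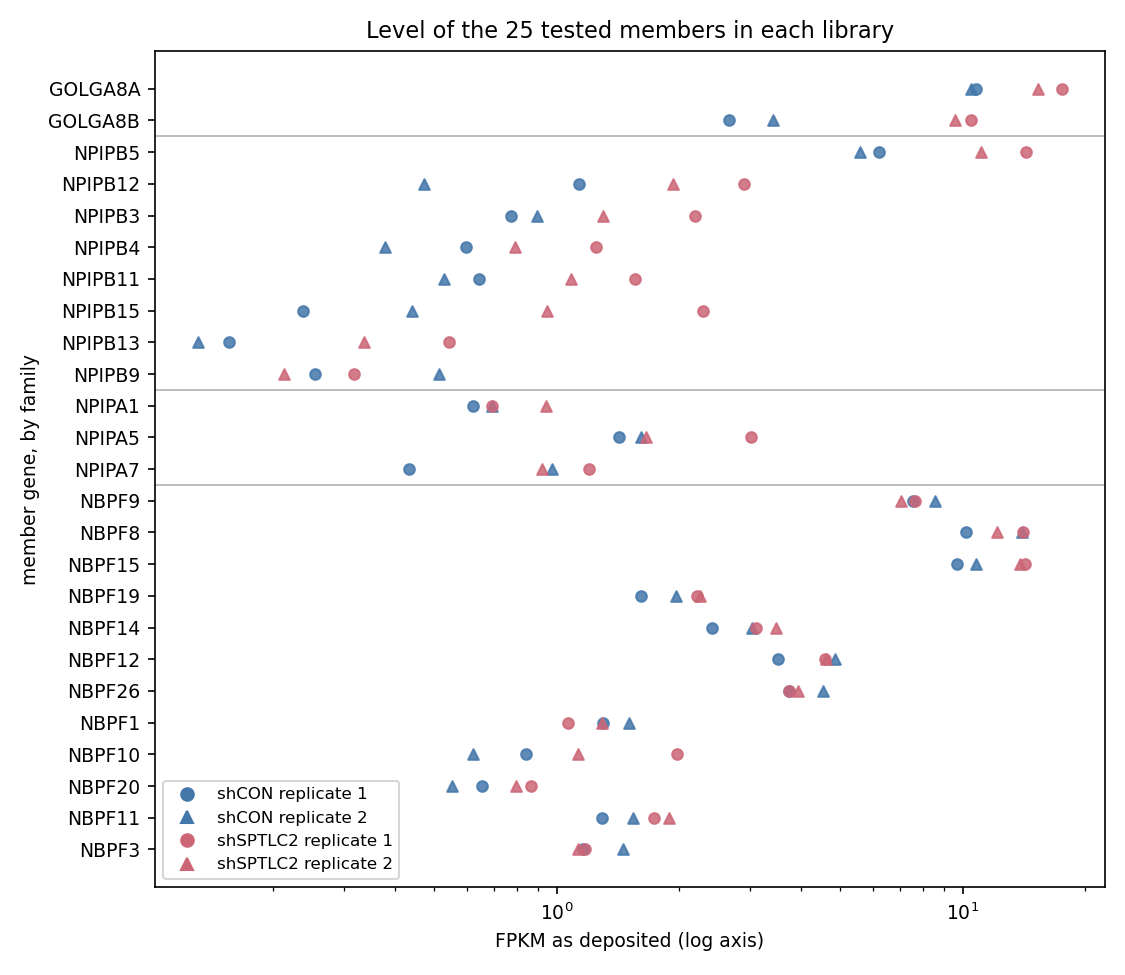
Deposited FPKM (x, log axis) of the 25 tested members (y, grouped by family) in each library, with circles for replicate 1 and triangles for replicate 2 of shCON (blue) and shSPTLC2 (red). GOLGA8B moved from 2.66 and 3.40 in shCON to 10.5 and 9.59 in shSPTLC2, while the points of NBPF9 overlap.

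In the fit over the whole table, 11 of the 25 tested members were called higher in shSPTLC2, 0 lower, and 14 were not called (edgeR, adjusted p under 0.05). Of all 15313 tested genes, 10.4% were called higher, 9.00% lower and 19.4% in either direction. For 17 members both shSPTLC2 libraries lay above both shCON libraries, and for 0 below. The same held for 31.3% and 30.2% of all tested genes. The median log2 fold change of the 25 was 0.47, against 0.005 for all tested genes, and 20 of the 25 were above 0. Since the families were picked from this comparison, nothing is read from these shares.

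**Figure D2:**
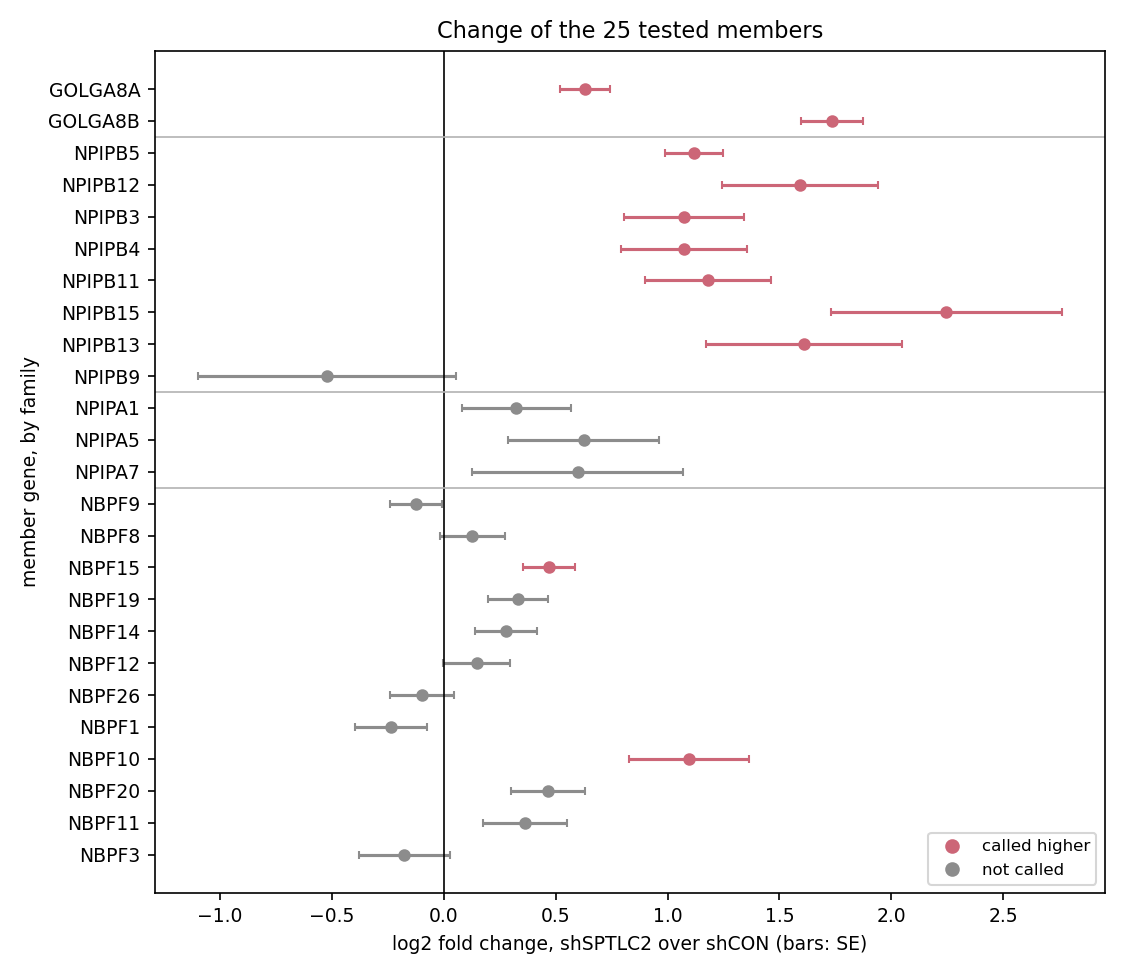
Log2 fold change, shSPTLC2 over shCON (x), of each tested member (y), with bars for the SE of the fit and colour for the call. The 11 called members lie to the right of 0, from NBPF15 at 0.47 to NPIPB15 at 2.25, and NPIPB9 has the lowest value, -0.52.

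GOLGA8A (ENSG00000175265, chr15:34379068-34437466, minus strand) had 1081 and 1040 counts in shCON, against 1760 and 1597 in shSPTLC2. GOLGA8B (ENSG00000215252, chr15:34525207-34588503, minus strand) had 302 and 383 against 1196 and 1138. Both genes were higher in each shSPTLC2 library than in either shCON library, and both rose. The log2 fold change was 0.63 ± 0.11 (SE) for GOLGA8A and 1.74 ± 0.14 for GOLGA8B. The other 13 GOLGA8 rows stayed at 0 to 9 counts per library.

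The make-up of the GOLGA8 counts restates the rise of GOLGA8B that led to the choice of the families, and is given as a description. GOLGA8B made up 21.4% (95% exact binomial interval 19.3 to 23.6%) and 26.1% (23.9 to 28.5%) of GOLGA8 counts in shCON. In shSPTLC2 it made up 40% (38.2 to 41.8%) and 41.2% (39.3 to 43.0%). GOLGA8A went from 76.6% and 70.9% in shCON to 58.9% and 57.8% in shSPTLC2. The intervals cover counting error alone and take the authors' placing of reads as given, although 56.7% of the 100-base subsequences of GOLGA8A also lie in GOLGA8B. Summed over the 15 rows, which does not depend on how reads were split among them, GOLGA8 had 1411 and 1466 counts in shCON and 2990 and 2764 in shSPTLC2. In CPM the sum was 97.9 ± 3.87 (SD, n = 2) in shCON and 191.7 ± 16.4 in shSPTLC2, a log2 fold change of 0.97 ± 0.11 that was called. In that refit, with family sums in place of members, 10.4% of 15292 rows were called higher.

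**Figure D3:**
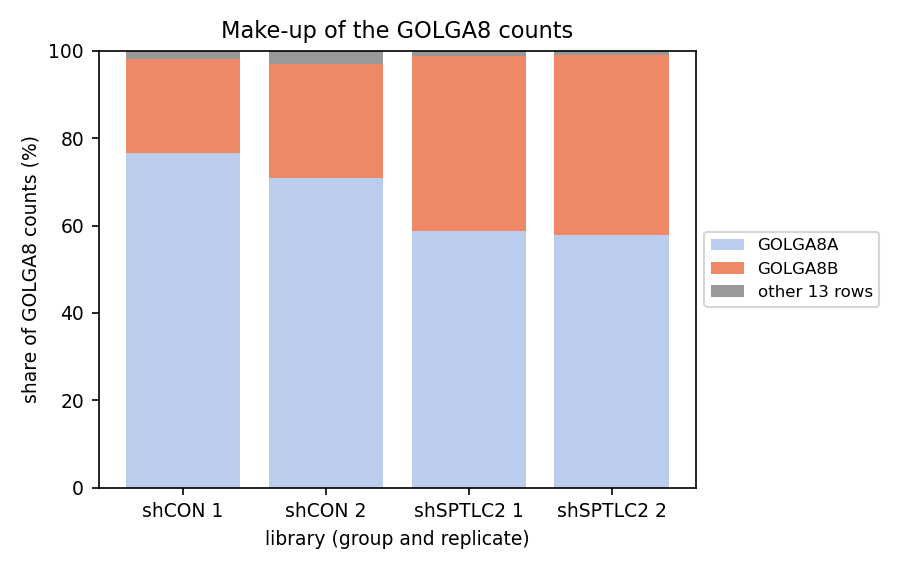
Share of all GOLGA8 counts (y, percent) assigned to GOLGA8A, GOLGA8B and the other 13 rows in each of the 4 libraries (x). The GOLGA8B part is 21.4% and 26.1% in shCON and 40% and 41.2% in shSPTLC2.

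In NPIPB, 7 of 8 tested members were called higher, beside 10.4% of all tested genes. They include NPIPB12, for which the families were picked, and NPIPB15 and NPIPB13, which passed the filter through shSPTLC2. NPIPB5 (ENSG00000243716, chr16:22479121-22536521, plus strand) had 924 and 819 counts in shCON, against 2133 and 1720 in shSPTLC2, and rose with a log2 fold change of 1.12 ± 0.13 (SE). The gene held 76.9% and 79.1% of NPIPB counts in shCON and 75.1% and 78.9% in shSPTLC2, so its shares overlapped between the groups while the family total rose. NPIPB12 (ENSG00000169203, chr16:29483642-29505999, minus strand) had 73 and 30 counts in shCON and 186 and 130 in shSPTLC2 (1.59 ± 0.35). The 2 shCON libraries of NPIPB12 were far apart, and its shares of NPIPB counts overlapped between the groups, at 6.07% and 2.90% in shCON and 6.54% and 5.96% in shSPTLC2.

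The other NPIPB members that rose were scarcer. NPIPB3 had 54 and 62 counts in shCON and 154 and 95 in shSPTLC2 (log2 fold change 1.07 ± 0.27), and NPIPB4 had 69 and 43 against 145 and 95 (1.07 ± 0.28). NPIPB11 had 42 and 34 against 102 and 74 (1.18 ± 0.28). In each of these genes shSPTLC2 replicate 1 was the highest library and both shSPTLC2 libraries exceeded both shCON libraries. NPIPB15, which lies far from the others on chromosome 16 (chr16:74377878-74392080), had 6 and 11 counts against 58 and 25 (2.25 ± 0.51). NPIPB13 had 12 and 10 against 42 and 27 (1.61 ± 0.44). NPIPB9, the tested member that was not called, had 8 and 16 counts against 10 and 7 (-0.52 ± 0.58), and its groups overlapped. As a sum over 12 rows NPIPB had 76.1 ± 7.03 CPM (SD, n = 2) in shCON and 167.7 ± 36.2 in shSPTLC2, which was called with a log2 fold change of 1.14 ± 0.14. Without NPIPB5, the most counted member, the log2 fold change of the sum was 1.22. That sum still holds NPIPB12, for which the families were picked. It also holds NPIPB15 and NPIPB13, which passed the filter through shSPTLC2, so nothing is read from it.

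NPIPA, the other branch of the NPIP family, had 0 calls among its 3 tested genes, beside 19.4% of all tested genes called in either direction. NPIPA1 had 67 and 74 counts in shCON and 75 and 106 in shSPTLC2 (log2 fold change 0.32 ± 0.24). NPIPA5 had 32 and 36 against 68 and 39 (0.63 ± 0.34), and NPIPA7 had 9 and 20 against 25 and 20 (0.60 ± 0.47). Counts of the 2 shSPTLC2 libraries lay far apart for NPIPA1 and NPIPA5, in opposite order. The NPIPA sum was 8.71 ± 0.98 CPM (SD, n = 2) in shCON and 11.7 ± 0.54 in shSPTLC2 (0.43 ± 0.18, not called). Whether NPIPA and NPIPB differ in their change was not tested.

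NBPF held the most counts of the families, and 2 of its 12 tested genes were called higher, beside 10.4% of all tested genes. NBPF15 (ENSG00000266338, chr1:144421386-144461674, minus strand) had 761 and 838 counts in shCON and 1125 and 1139 in shSPTLC2 (log2 fold change 0.47 ± 0.12). NBPF10 (ENSG00000271425, chr1:146064699-146144804, minus strand) had 165 and 121 against 391 and 231 (1.10 ± 0.27). For both genes the groups did not overlap, and in NBPF10 shSPTLC2 replicate 1 stood well above replicate 2. NBPF10 shared 61.8% of its 100-base subsequences with NBPF14, which had 434 and 540 counts against 559 and 651 (0.28 ± 0.14) and was not called.

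The remaining NBPF genes lay on both sides of 0. NBPF9, whose start region is printed above beside that of NBPF15, had 1011 and 1136 counts in shCON and 1025 and 989 in shSPTLC2 (log2 fold change -0.12 ± 0.12). NBPF8 had 805 and 1093 against 1118 and 1000 (0.13 ± 0.15). The groups of both genes overlapped. NBPF20 (0.47 ± 0.16), NBPF11 (0.36 ± 0.19) and NBPF19 (0.33 ± 0.13) had groups that did not overlap and were not called. Among the 12 alternatives NBPF20 was called in 5, among them the replicate block (0.47) and without shCON replicate 1 (0.58), and NBPF19 in 4, among them without shCON replicate 2 (0.48). NBPF12 (0.15 ± 0.15), NBPF26 (-0.10 ± 0.14), NBPF3 (-0.18 ± 0.20) and NBPF1 (-0.24 ± 0.16) had overlapping groups. Summed over 15 rows, NBPF had 370.4 ± 48.5 CPM (SD, n = 2) in shCON and 422.9 ± 15.7 in shSPTLC2, with a log2 fold change of 0.19 ± 0.11 that was not called. Without shCON replicate 2 the NBPF sum was called, at 0.33.

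**Figure D4:**
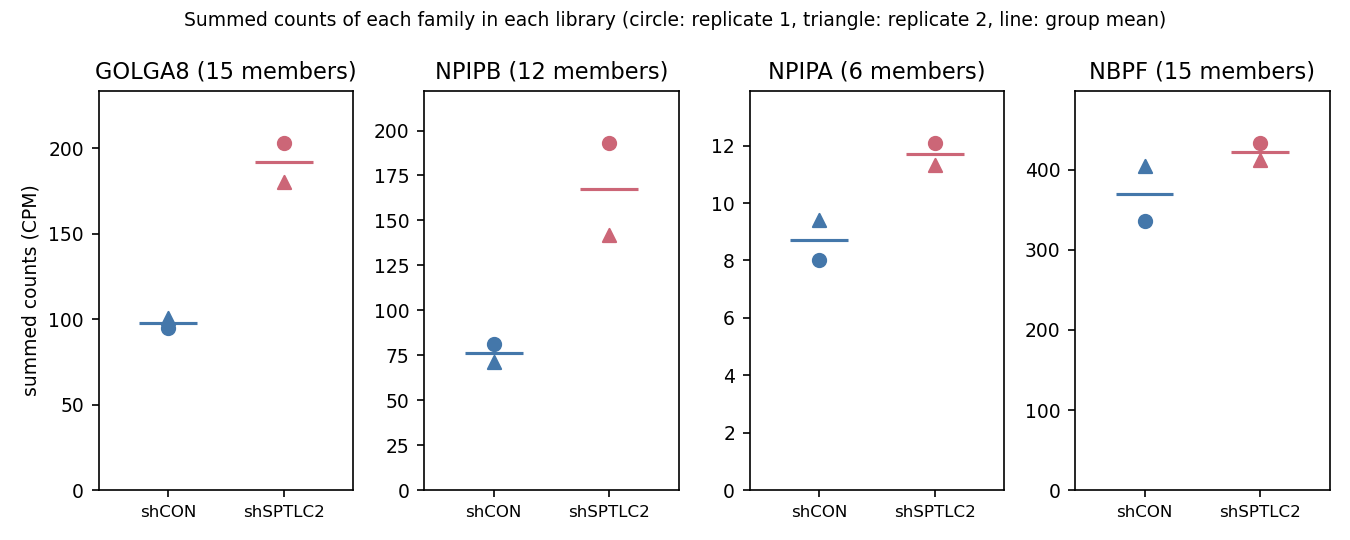
Summed counts of each family in CPM (y, from 0, a separate scale in each panel) in shCON and shSPTLC2, with a circle for replicate 1, a triangle for replicate 2 and a line for the group mean. GOLGA8 and NPIPB lie higher in both shSPTLC2 libraries at log2 fold changes of 0.97 and 1.14, while shCON replicate 2 of NBPF comes close to the shSPTLC2 libraries.

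Many of the calls needed a particular library. Without shSPTLC2 replicate 1, 2 members were called, GOLGA8B (log2 fold change 1.67) and NPIPB5 (0.92), and the other 9 lost their calls while remaining above 0. In that fit 3.97% of all tested genes were called in either direction, against 19.4% with all libraries and 6.17% without shSPTLC2 replicate 2. GOLGA8A then had 0.53, NPIPB12 1.28, NPIPB15 1.48, NBPF15 0.45 and NBPF10 0.63. NBPF15 was not called without shSPTLC2 replicate 2 either, at 0.49. Without shCON replicate 1 NPIPB12 moved to 2.34, and without shCON replicate 2 NBPF8, NBPF12, NBPF14 and NBPF19 were called as well. Over the 14 alternatives run for them, the sums of GOLGA8 and NPIPB had log2 fold changes from 0.88 to 1.63 and from 0.90 to 1.34. The alternative without the most counted member left out GOLGA8A and kept GOLGA8B. All of these sums hold GOLGA8B or NPIPB12, for which the families were picked, so nothing is read from these ranges.

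The change was set beside similarity, a property that does not use the counts. Of the 5 tested members with the most sharing, NPIPB3 had 1.07, NPIPB12 1.59, NPIPA7 0.60 and NPIPB13 1.61. The fifth, NPIPB9, with 89.1% shared, had -0.52 ± 0.58 (SE) on 7 to 16 counts per library, a value within its SE of 0. The 2 with the least, NBPF3 and NBPF1, had -0.18 ± 0.20 and -0.24 ± 0.16 and were not called. NPIPB12 was a reason for picking the families, and NPIPA7, NPIPB13 and NPIPB15 (30.2% shared, 2.25) passed the filter through shSPTLC2, so nothing is read from their place in the plot. These points share their libraries and, between copies, their reads.

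**Figure D5:**
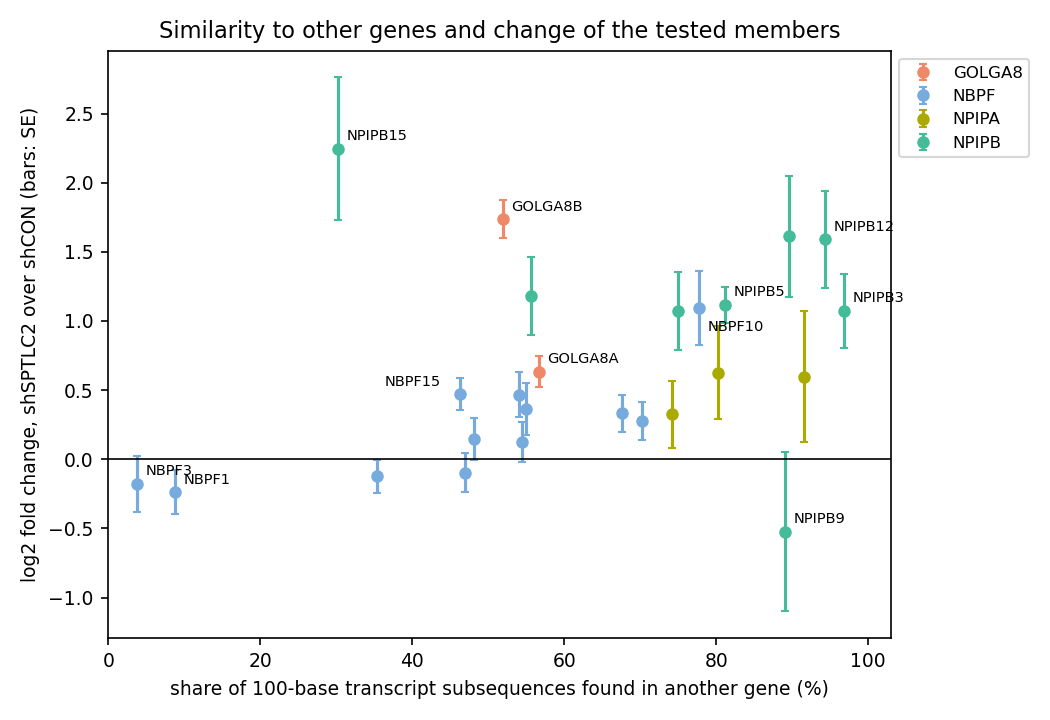
Percentage of each tested member's 100-base transcript subsequences found in another gene (x) against its log2 fold change, shSPTLC2 over shCON (y, bars for the SE), coloured by family. NPIPB genes span 30.2% to 96.8% of sharing, with NPIPB9 at 89.1% below 0, as are NBPF3 at 3.83% and NBPF1 at 8.79%.

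Golgi genes, genes with symbols like those of the members and other duplicated genes were described by list. Among 14 genes listed as golgins and Golgi tethers, 0 were called higher and 3 lower, with a median log2 fold change of -0.03. GCC1 (-0.71 ± 0.15, SE), GOLGA1 (-0.46 ± 0.12) and GOLGA5 (-0.44 ± 0.14), all coiled-coil proteins of the Golgi, fell. GOLGA2, the relative from which GOLGA8 copies are thought to derive, had -0.25 ± 0.13 and was not called. Among 5 tested genes whose symbols begin like those of the members without meeting the rule, 1 was called higher and 0 lower: GOLGA6L9, with 50 and 34 counts in shCON and 78 and 99 in shSPTLC2 (1.04 ± 0.27). Genes of other duplicated primate families were taken by symbol, which does not tell duplicated copies from other genes so named. Of the 45 tested, 7 were called higher and 0 lower, with a median of 0.19. AGAP4 (1.09 ± 0.15), AGAP6 (0.87 ± 0.14), TBC1D3L (1.80 ± 0.31) and SRGAP2 (0.57 ± 0.11) were among them. These counts stand beside 10.4% called higher and 9.00% called lower among all tested genes. Leaving out either shSPTLC2 library ended the calls of the 3 golgins and of GOLGA6L9, which was also not called without shCON replicate 2, and without shSPTLC2 replicate 1, 4 genes of the other duplicated families were called higher.

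Genes from the same duplicated segments and the nearest genes were counted next. Of 21 tested genes known from these segments, 2 were called higher (HERC2P3, 1.42 ± 0.18, and HERC2P2, 1.06 ± 0.19) and 2 lower (NOTCH2, -0.37 ± 0.11, and HERC2, -0.37 ± 0.12), with a median log2 fold change of -0.08. The numbers called in both directions moved with the library left out, as given further on. Without either shSPTLC2 library 0 were called lower. Of the 46 distinct tested genes nearest to the members by coordinate, 7 were called higher and 0 lower, with a median of 0.13. Beside the members called higher, 2 of 20 nearest genes were called higher, with a median of 0.08. Among all tested genes 10.4% were called higher and 9.00% lower. HNRNPLP2, the nearest tested gene between GOLGA8A and GOLGA8B, had -0.43 ± 0.26, and LPCAT4, on the other side of GOLGA8A, rose by 1.06 ± 0.12. The pseudogene SMG1P3 overlaps NPIPB3 on the same strand and had -0.57 ± 0.22, with no call, while NPIPB3 rose.

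Other measures that moved with the groups are given as values. Libraries held 14464784 to 15084966 counts. Members took 0.051% and 0.057% of counts in shCON and 0.086% and 0.076% in shSPTLC2. Mitochondrial transcripts took 5.46% and 6.39% in shCON and 10.1% and 8.56% in shSPTLC2. Of 16 RNAs known to stay in the nucleus or to retain introns, 3 were called higher (TIA1, 0.87 ± 0.11, CCNL2, 0.83 ± 0.12, and NKTR, 0.63 ± 0.12) and 0 lower, with a median log2 fold change of 0.23 and NEAT1 at 0.60 ± 0.31 without a call. These counts stand beside 10.4% of all tested genes called higher and 9.00% called lower, and they moved with the library left out, as given further on. The part of these measures in the members' values was not tested. Among markers of ovarian carcinoma and epithelium, KRT8 had 17489 to 18822 counts and PAX8 rose from 4047 and 4288 to 7270 and 6809 (0.73 ± 0.11), while CDH1 was at 0 and EPCAM at 3 to 10. Mesenchymal markers were abundant, with 62465 to 74955 counts of VIM, 18268 to 27764 of FN1 and 1777 to 2226 of CDH2, and were not called. Blood markers were at 0 to 2 counts, the endothelial CDH5 was higher in shSPTLC2 (848 and 804 against 1598 and 2000) and PECAM1 lower (31 and 27 against 6 and 12), and the fibroblast markers COL1A1 (23 and 34 against 92 and 76) and PDGFRB (5 and 5 against 11 and 9) were scarce, and their part was not tested. In RNA from whole cultures, a change in the share of cells that express a copy and a change in RNA per cell cannot be told apart.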

How the data were processed

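Raw read counts (whole numbers) and FPKM (fragments scaled to gene length and library size) of 58735 Ensembl genes were used as the authors deposited them. The submitters' processing notes name HISAT2, StringTie, SAMtools and hg38, with no versions. The counting program, its strand setting and its treatment of reads that match several copies are not stated there, so reads of overlapping, antisense and near-identical genes cannot be told apart.

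Counts of all 4 libraries were tested in R 4.3.3 with edgeR 4.0.16: filterByExpr (minimum count 10, minimum total count 15), TMM scaling, a robust quasi-likelihood fit, the two-sided F test with no covariate and Benjamini-Hochberg adjustment over the 15313 tested genes. Calls were made at an adjusted p below 0.05. All log2 fold changes compare shSPTLC2 with shCON, the SE is |log2 fold change| / sqrt(F), and CPM use TMM-adjusted library sizes. For family sums, members were replaced by 1 row per family and the table was refitted. Alternatives were DESeq2 1.42.0, other scalings and filters, a GC-content correction, a replicate block and each library left out. The code was tested on simulated data. Floors and intervals cover counting error only.

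Transcripts and coding sequences came from GENCODE 29, promoters from RefSeq. Members, lists and tests were chosen with earlier results of these data known. The rule named every tested member, members at 0 and, per list, at most 4 genes by smallest adjusted p plus at most 2 by highest mean CPM. Neighbouring and overlapping genes, and members named among those not tested, fall outside it and were picked with their values in view. Replicates differed by more than sampling noise, with a chi-square p under 0.05 for 37.4% of genes between the shCON and 28.7% between the shSPTLC2 libraries.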

Additional observations from a re-analysis of the deposited data

How the results depend on the processing

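In 12 alternatives 2 to 15 members were called higher and 0 lower. Leaving out 1 library at a time gave 2 to 15 members higher, with 2 without shSPTLC2 replicate 1. Over all genes it gave 413 to 1977 higher and 227 to 2050 lower, the lowest counts without shSPTLC2 replicate 1. A lone library in a group was assumed to vary like the other group. DESeq2 called 10 members, without NPIPB13. The log2 fold change of the NBPF sum ran from 0.055 to 0.33 with a library left out, called at 0.33 without shCON replicate 2. Medians of sharing with 50-base subsequences were 67.2% (GOLGA8), 91.1% (NPIPB), 89.5% (NPIPA) and 74.1% (NBPF).

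Scaling by library totals moved the split of calls from 53.6% to 65.1% higher, with 13 members higher, and the GC-content correction moved it to 43.6%, also with 13. With a library left out, golgins called higher ran from 0 to 1 and lower from 0 to 4, near copies higher from 0 to 1, nuclear RNAs higher from 2 to 10 and lower from 0 to 2, other duplicated families higher from 4 to 9 and lower from 0 to 2, and segment neighbours higher from 1 to 6 and lower from 0 to 5. Nuclear RNAs called higher numbered 5 with library totals, with no low-count filter, and with the replicate block with or without the GC-content correction. Other duplicated families called lower numbered 1 with the GC-content correction and 2 with it and the block. Segment neighbours called lower numbered 0 with library totals. The cause of these shifts was not tested.

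With the replicate number as a block, 12 members were called higher and 0 lower, and 3307 genes in all against 2971. The labels do not say that the numbers pair libraries, and the deviations of same-numbered libraries had a correlation of -0.018 over tested genes. Depth limits the 20 members with counts that were not tested, where at most 32 counts in all were seen.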

Other observations

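Among the members not tested, NPIPA2 and NPIPA3 had counts that varied within groups, at 0 and 5 against 2 and 8 for NPIPA2 and 10 and 2 against 8 and 0 for NPIPA3 (shCON against shSPTLC2). NPIPB6 had 10 and 10 counts in shCON and 8 and 4 in shSPTLC2. GOLGA8N, the GOLGA8 row with the most counts after GOLGA8A and GOLGA8B, had 9 and 8 against 6 and 8. GOLGA8Q and GOLGA8R had the same 4 counts, 5 and 7 in shCON and 4 and 1 in shSPTLC2. Of 1197 genes with a total of 15 to 20 counts, 33.2% had the same 4 counts as some other such gene. That share covers a match with any of them, so it does not say how often 2 given copies match. Whether reads were counted for both GOLGA8Q and GOLGA8R was not tested.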
